A study of Mus musculus with 12 samples.

Results

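The 6 assays described here are the control assays of a small RNA panel. They are U6 (listed as "U6 rRNA"), snoRNA135, snoRNA202, U87 and Y1, which measure mouse small RNAs, and ath-miR159a, which is named for a miRNA of the plant Arabidopsis thaliana. They were taken by name from the panel's list of assays. Each fills 16 spots, so the part holds 96 of the panel's 846 spots, and the other 750 assay miRNAs. The RNA came from pancreatic islets, the clusters of hormone-secreting cells that contain the insulin-producing beta cells, of male C57BL/6 offspring aged 2 to 3 months. The LP0.5 group (6 samples) had mothers on a low-protein diet in pregnancy, and the Control group (6 samples) had mothers on a control diet. Both groups share strain and sex, and all islets were picked by hand and kept in culture overnight before RNA isolation. The labels do not say whether islets of several mice were pooled.

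Real-time PCR gives each RNA as a cycle number, and a sample that received more RNA reaches it earlier for every target. Reference RNAs are therefore measured beside the targets, on the premise that their own level does not depend on the treatment. U6 is the small nuclear RNA at the catalytic core of the spliceosome and is transcribed by RNA polymerase III. SnoRNA135, snoRNA202 and U87 are box C/D small nucleolar RNAs, a class that guides 2'-O-methylation of ribosomal and other RNAs. Y1 is a Y RNA, a polymerase III transcript bound by the Ro60 protein. Mice do not make miR-159a, so its assay serves as a control without a target. A mouse RefSeq table of assembly GRCm38.p6 holds snoRNA135 as another name of Snord65 and U87 as another name of Snord87, with gene lengths of 57 and 74 bases. Snord68 (48 bases), Rny1 (111 bases) and Rnu6 (107 bases) in that table are the genes known for snoRNA202, Y1 and U6.

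Each spot has 1 linear ratio in the authors' deposited table, under a heading that sets low-protein against control, so a value above 1 is read here as a higher level in LP0.5 islets. That direction rests on the heading alone. The study is known for naming miR-152, miR-199a-3p and miR-342-3p as raised in low-protein islets, and the authors' deposited table lists them at 0.696, 0.422 and 1.24. For miR-199a-3p and miR-152 the heading's direction is opposite to that naming, so directions below may be reversed as a whole. For miR-342-3p the heading's direction is that of the naming, so neither direction matches it for all of these miRNAs. A ratio is 1 value for all samples together. The repeated spots of an assay are repeats of 1 comparison and not separate animals, so spreads below are between spots and no p-value is given. In RNA of whole islets, fewer cells of a type and less of an RNA per cell cannot be told apart. The cycle numbers of single samples were not analysed here, because their columns match no sample label. A missing label prevents a comparison of the diets by sample, and cycle numbers over the unlabelled columns were not examined either. The levels of the controls, their stability across samples and the islet identity of the RNA are therefore not described here. The islet miRNAs fixed as markers (miR-375, miR-7 and miR-7b) were listed between 0.523 and 1.17 in the authors' deposited table. The markers of acinar, endothelial and blood cells (miR-216a, miR-216b, miR-217, miR-126, miR-451 and miR-142-3p) ranged from 0.620 to 1.83 there, and their part in the results was not tested.

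The spots lie in 16 blocks of 4 rows (A to D) and 4 columns (1 to 4). Blocks of columns 1 and 2 carry the A set of miRNA assays and those of columns 3 and 4 the B set, 8 blocks each. Every control assay sits once in each block, at the same place. All 80 spots of the 5 small RNA controls had a ratio. Among miRNA spots, the A set listed 304 of 377 and the B set 262 of 373, so 19.4% and 29.8% had none.

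U6 was the narrowest of the controls in the A set and, with snoRNA202, in the B set. In the authors' deposited table its 8 A-set spots ran from 0.961 to 1.02 with a median of 1.00, and its 8 B-set spots from 0.972 to 1.03 with a median of 0.995. The SD between spots was 0.03 on the log2 scale in each set (n = 8 spots). The mean log2 ratio of U6 was 0 in each set, which makes U6 of the same set the reference of the table. A position of U6 near 1 is thus fixed by the calculation and is no measurement of how U6 itself differed between the diets. Its spread between spots is not fixed in this way.

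**Figure D1:**
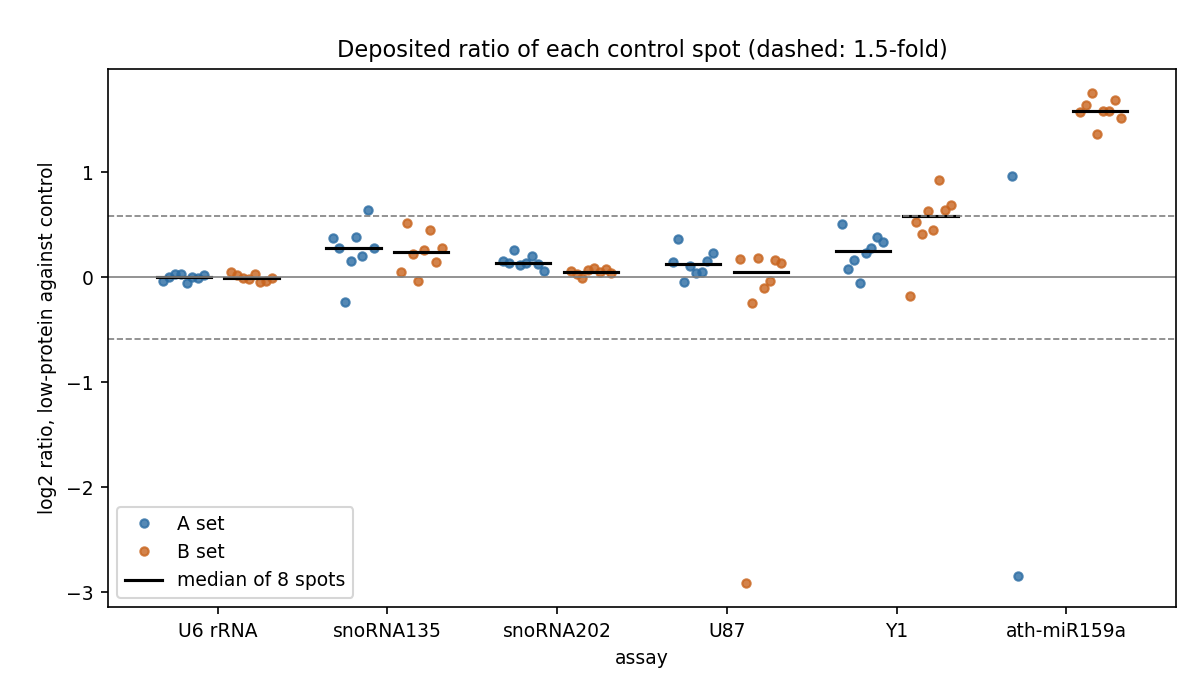
Log2 of the deposited ratio (y axis, low-protein against control) at each spot of the 6 control assays (x axis), with A-set spots in blue, B-set spots in orange, black bars at the median of 8 spots and dashed lines at 1.5-fold. U6 and snoRNA202 form tight groups, 1 U87 spot lies at 0.133, and the 8 B-set spots of the plant assay lie between 2.59 and 3.37.

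The 3 small nucleolar RNAs were listed above U6 at most spots, by small amounts. SnoRNA202 was the tightest of them. In the authors' deposited table its A-set spots ran from 1.04 to 1.20 (median 1.10) and its B-set spots from 0.996 to 1.06 (median 1.04). The mean log2 ratio was 0.15 ± 0.06 (SD, n = 8 spots) for the A set and 0.05 ± 0.03 (SD, n = 8 spots) for the B set. It exceeded U6 of the same block in 8 of 8 blocks of each set. The distance from U6 was larger than the spread between spots in both sets, and the spots of the sets overlapped.

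SnoRNA135 lay further from U6 and was more scattered. The authors' deposited table lists it from 0.850 to 1.56 in the A set (median 1.21) and from 0.975 to 1.43 in the B set (median 1.18). Mean log2 ratios were 0.26 ± 0.25 (SD, n = 8 spots) and 0.24 ± 0.19 (SD, n = 8 spots), differing by -0.02 between the sets (B minus A). It was above U6 of its own block in 7 of 8 blocks in each set. The A-set exception was the block of row B, column 1, which held the lowest of the 16 values, and in the B set it was row B, column 4. The highest value was in row D, column 1.

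U87 gave the least even picture, through a single spot. U87 was above U6 of its own block in 7 of 8 A-set blocks but in only 5 of 8 B-set blocks. In the A set the authors' deposited table lists U87 from 0.971 to 1.29 (median 1.09), with a mean log2 ratio of 0.13 ± 0.12 (SD, n = 8 spots). In the B set 7 spots were listed from 0.845 to 1.13 and the spot of row A, column 4 at 0.133 in the authors' deposited table. With that spot the B-set mean log2 ratio was -0.33 ± 1.05 (SD, n = 8 spots), and without it 0.04 ± 0.17 (SD, n = 7 spots). Other controls of the same block were not low: in the authors' deposited table U6 was listed there at 1.02, snoRNA202 at 1.02, snoRNA135 at 1.43 and Y1 at 1.44. The low value was thus not shared by these 4 controls of its block, and the miRNA assays of the block were not examined for it.

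Y1 stood farthest from U6 of the 5 small RNAs in the B set by median, above it as the heading reads. In the authors' deposited table the B-set spots of column 3, from row A to row D, were 0.883, 1.33, 1.37 and 1.56, and those of column 4 were 1.44, 1.55, 1.91 and 1.61. Column 4 was higher than column 3 in 4 of 4 rows, with mean log2 ratios of 0.70 and 0.33. In the A set the authors' deposited table lists Y1 from 0.966 to 1.43 (median 1.19), and column 2 was higher than column 1 in 1 of 4 rows. Mean log2 ratios were 0.24 ± 0.18 (SD, n = 8 spots) in the A set and 0.51 ± 0.32 (SD, n = 8 spots) in the B set, a difference of 0.27 (B minus A). With the direction turned, Y1 would be farthest below U6 in the B set, at a mean log2 ratio of -0.51. The difference of 0.27 between the sets was smaller than the B-set SD of 0.32, and the spots of the sets overlapped. The B-set distance of Y1 from U6, 0.51, was larger than that SD.

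**Figure D2:**
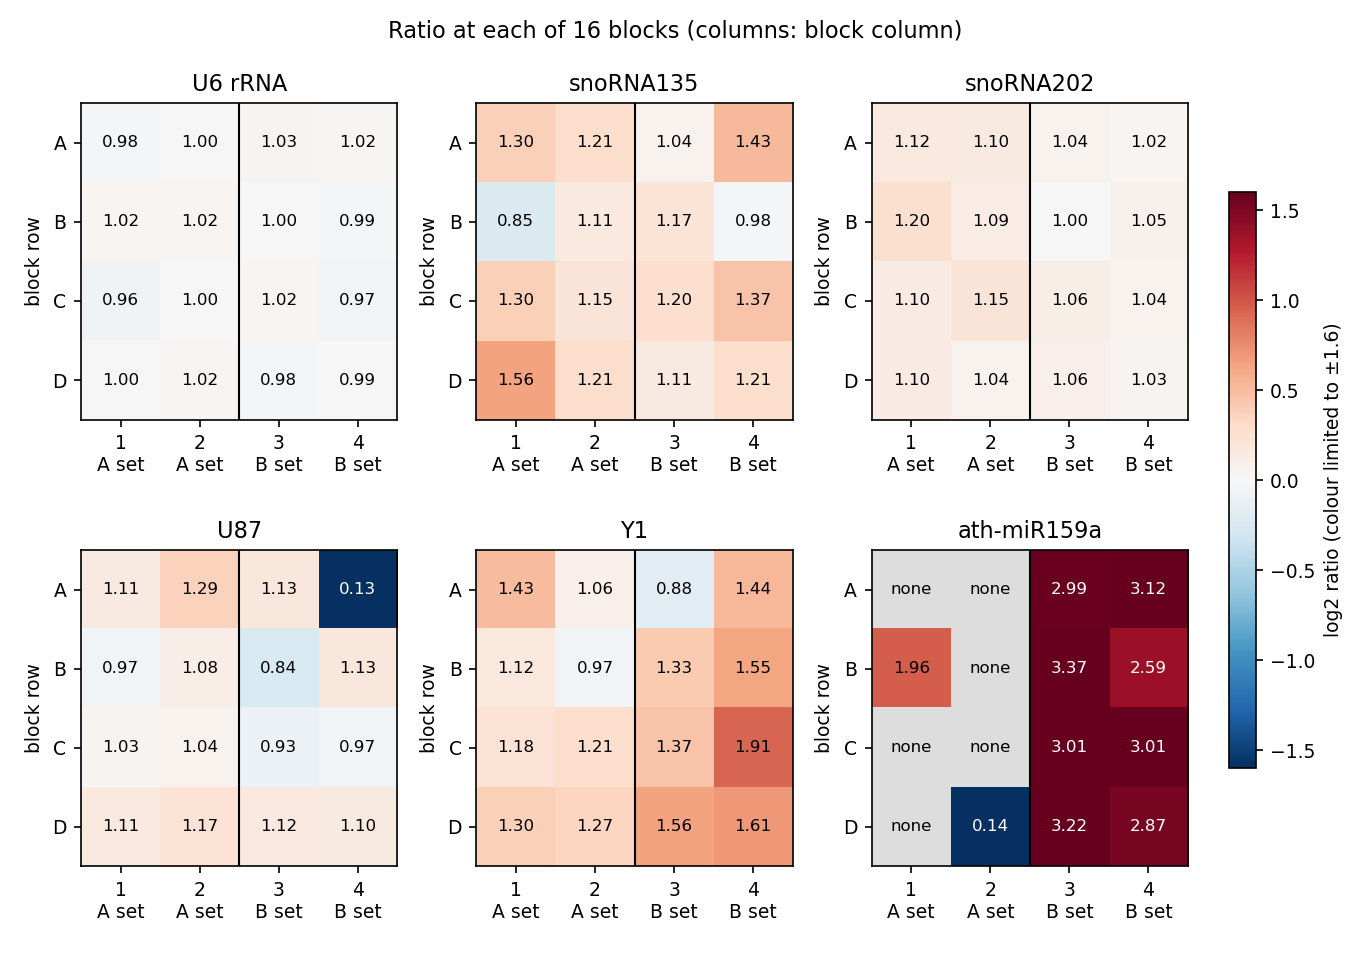
Ratio of each control assay at the 16 blocks, laid out by block row (y axis, A to D) and block column (x axis, 1 to 4), with colour for the log2 ratio and "none" where no ratio is listed. At row A, column 4, where U87 is at 0.133, no other map holds a low value, Y1 is higher in column 4 than in column 3 in all 4 rows, and the plant assay is filled in columns 3 and 4 with 2 values in columns 1 and 2.

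The 5 small RNA controls differed from one another within a block by a median factor of 1.32 from lowest to highest in the A set (1.15 to 1.57) and 1.59 in the B set (1.28 to 10.9, the last at the low U87 spot). Y1 was the highest of the 5 in 7 of 8 B-set blocks and in 3 of 8 A-set blocks. U6 was the lowest in 6 of 8 A-set blocks and 3 of 8 B-set blocks, and was highest in 0 of 16. With the direction turned, Y1 would be the lowest in those same blocks, and U6 the highest in 9 of 16. In the B set Y1 exceeded snoRNA202 of the same block in 7 of 8 blocks, by a median factor of 1.44, and exceeded snoRNA135 in 7 of 8, by 1.23. In the A set Y1 and snoRNA135 were level, each higher in 4 of 8 blocks. SnoRNA202 and U87 lay closest together, with median factors of 0.993 (A set) and 0.996 (B set) for U87 over snoRNA202. By their medians, U6, snoRNA202 and U87 were below snoRNA135 and Y1 in both sets. The ranges of single spots overlapped for every pair of controls in the A set except U6 and snoRNA202.

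Deviations from the set mean were not shared by all controls of a block. Across the 16 blocks, which share the samples and the place of each assay, Pearson's r between pairs of controls ran from -0.68 (U6 and Y1) to 0.42 (snoRNA135 and Y1), and 3 of 10 pairs were above 0. The pairs with U87 include its low spot of row A, column 4. Without that block r moved from -0.35 to -0.07 for snoRNA135 and U87. For snoRNA202 and U87 it moved from 0.07 to -0.08. The set means were taken before the block was left out, so the B-set mean of U87 still held the low spot. All these values are given as a description. The U6 deviations behind the lowest value span only from 0.961 to 1.03 in the authors' deposited table.

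A fold limit of 1.5 gives a sense of scale. Of the 566 miRNA spots with a ratio, 35.3% were at least 1.5-fold from 1 (A set 28.9%, B set 42.7%). Of the 80 spots of the 5 small RNA controls, 6 (7.50%) were, namely 4 of Y1 above 1, 1 of snoRNA135 above 1 and the 1 low spot of U87. By set, 1 of 40 control spots was above the limit in the A set, where 13.2% of miRNA spots were above it and 15.8% below. In the B set 4 of 40 were above and 1 below, where 24.8% of miRNA spots were above and 17.9% below. By these counts control spots were past the limit less often than miRNA spots in both sets, and 16 of the 80 are the U6 spots that define the scale. The control spots are repeats of 5 assays and the miRNA spots are of many different assays, so the shares are of unlike units. Without U6, 1 of 32 control spots (3.1%) was past the limit in the A set and 5 of 32 (15.6%) in the B set. Y1 in the B set did not share this, with 4 of its 8 spots past the limit beside 42.7% of B-set miRNA spots.

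The plant assay had a ratio at 10 of 16 spots, and the sets differed. In the A set 6 of 8 spots had none, and the authors' deposited table lists 1.96 at row B, column 1 and 0.139 at row D, column 2. These lie on opposite sides of 1 and 14.1-fold apart. In the B set all 8 spots had a ratio, and the authors' deposited table lists, from row A to row D, 2.99, 3.37, 3.01 and 3.22 in column 3 and 3.12, 2.59, 3.01 and 2.87 in column 4. Every one was above the highest B-set spot of any of the 5 small RNA controls, which was the Y1 value of 1.91 in the authors' deposited table.

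Repeated B-set spots of the plant assay were also close together. Their mean log2 ratio was 1.59 ± 0.11 (SD, n = 8 spots), a narrower spread than that of snoRNA135 (0.19) or Y1 (0.32) in the same set and a wider one than that of U6 (0.03) or snoRNA202 (0.03). The ratio exceeded Y1 of its own block by a median factor of 2.11 and snoRNA202 by 2.89. Of the 262 B-set miRNA spots with a ratio, 88.5% lay below the plant assay's median of 3.01. With the direction turned, the plant assay's median would be 0.332, with 88.5% of these miRNA spots above it. In that set 36 miRNA spots (13.7%) were at or above the plant assay's lowest value of 2.59, among them 11 inside its range and 25 above 3.37. In the A set 26 of 304 miRNA spots (8.55%) were at or above 2.59. The amount of product behind the plant ratios was not analysed here, so whether they reflect late or early cycles was not tested.

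**Figure D3:**
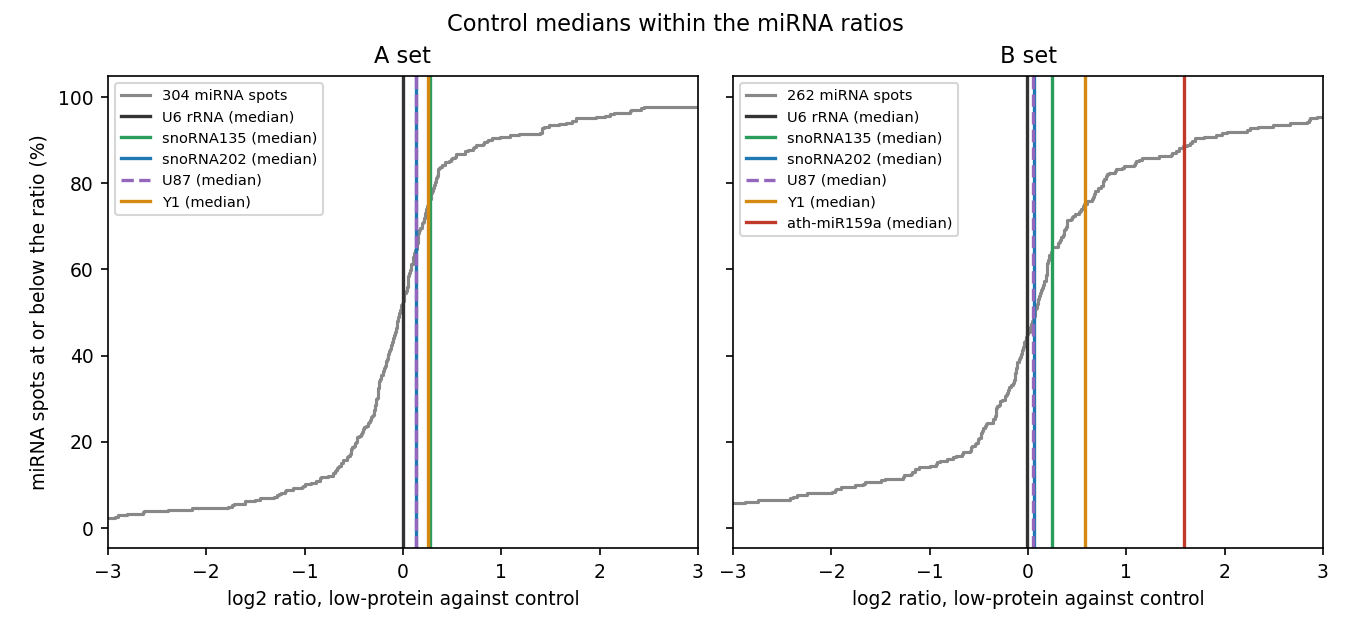
Share of miRNA spots (y axis, percent) at or below each log2 ratio (x axis, drawn from -3 to 3) for the 304 A-set and 262 B-set spots with a ratio, with vertical lines at the median of each control assay that has 8 ratios in the set. The snoRNA202 and U87 lines nearly coincide, Y1 moves to the right in the B set, and the plant assay lies beyond 88.5% of the B-set miRNA spots.

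The place of the control medians among the miRNA ratios differed by assay and set. In the A set the median miRNA ratio was 0.976, and 52.3% of miRNA spots lay below the U6 median, 64.5% below those of snoRNA202 and U87, 75.3% below Y1 and 76.3% below snoRNA135. In the B set the median miRNA ratio was 1.05, and these shares were 45.0% for U6, 48.5% for snoRNA202 and U87, 64.9% for snoRNA135 and 75.2% for Y1. SnoRNA202 and U87 were thus near the middle of the B set but above it in the A set, while Y1 held a similar place in both. With the direction turned, each share is that of miRNA spots above the control.

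The balance of miRNA spots above and below 1 depended on which control was the reference. With U6, 105 miRNA spots were at least 1.5-fold above 1 and 95 below, so 52.5% of these spots were above. The sets leaned opposite ways under U6, with 40 above and 48 below in the A set (45.5% above) and 65 above and 47 below in the B set (58.0% above). With Y1 as the only reference the counts were 72 and 181 (28.5% above), and with snoRNA135 they were 78 and 144 (35.1% above). SnoRNA202, with the narrowest spread between spots after U6, gave 98 and 116 (45.8% above). U87 gave 127 and 104 (55.0% above) with the spot of row A, column 4 and 99 and 114 (46.5% above) without it. The mean of these 4 controls gave 91 and 130 (41.2% above), and 82 and 135 (37.8% above) without that spot. The size of the shift behind these counts for snoRNA202 was 0.15 (A set) and 0.05 (B set), against 0.24 and 0.51 for Y1, on the log2 scale. Centring each set on its own miRNA median, which by construction puts equal numbers on each side of 1, gave 102 and 98, so this near balance is no comparison with the controls. With the direction turned, every pair of counts swaps sides: the share above would be 47.5% with U6, 54.2% with snoRNA202, 64.9% with snoRNA135, 71.5% with Y1 and 58.8% with the mean of 4 controls. For U87 it would be 45.0% with the low spot and 53.5% without it, and for the mean of 4 controls without that spot 62.2%.

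**Figure D4:**
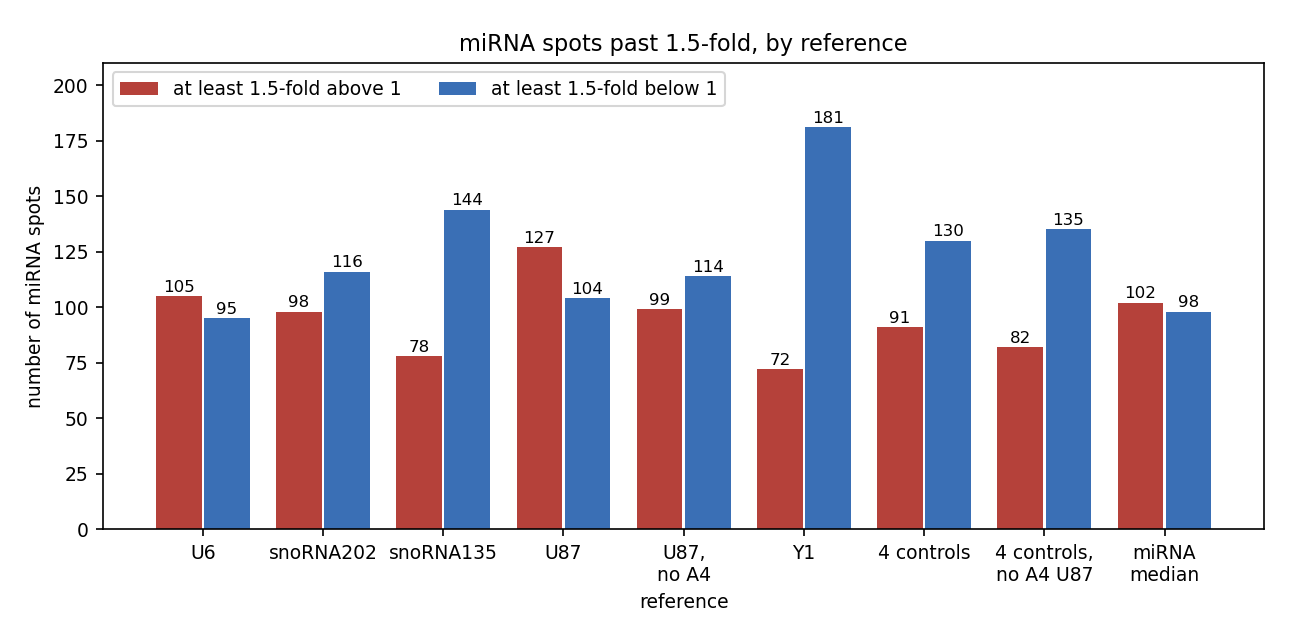
Number of miRNA spots (y axis, of 566 with a ratio) at least 1.5-fold above 1 (red) or below 1 (blue) for each reference (x axis), where "no A4" leaves out the U87 spot of row A, column 4. As the heading reads, more spots are above than below with U6 and with all U87 spots, and more are below with the other controls drawn, most so with Y1 (72 against 181); centring on the miRNA median is near even largely by construction.

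Some laboratories normalise to abundant miRNAs in place of longer small RNAs. A list of 11 such miRNAs was set beside the controls, all of them on the panel and in the A set, so the B set could not be compared in this way. Their mature mouse sequences, from RefSeq (GRCm38.p6), are shown because these are the RNAs of miRNA size that the controls stand in for, and capitals mark the seed (bases 2 to 8).
let-7a: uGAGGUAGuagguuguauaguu
miR-16: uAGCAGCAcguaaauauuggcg
miR-24: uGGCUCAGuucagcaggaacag
miR-26a: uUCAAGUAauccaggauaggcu
miR-26b: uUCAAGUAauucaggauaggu
miR-30e: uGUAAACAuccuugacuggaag
miR-92a: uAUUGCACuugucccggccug
miR-93: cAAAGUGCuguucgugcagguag
miR-103: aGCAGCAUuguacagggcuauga
miR-186: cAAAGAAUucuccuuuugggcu
miR-191: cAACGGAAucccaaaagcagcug
These 11 sequences are 21 to 23 bases long and carry 10 different seeds, with miR-26a and miR-26b sharing one. The assay for miR-92a is listed on the panel under an older name without the final letter.

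Relative to U6, 9 of the 11 miRNAs were listed below 1 and 2 above, beside 159 of all 304 A-set miRNA spots (52.3%) below 1. Their median was 0.921, beside 0.976 over all A-set miRNA spots. The authors' deposited table lists let-7a, an abundant miRNA that restrains proliferation, at 1.17 and miR-103, which acts on insulin sensitivity, at 1.05. It lists miR-191 at 0.998 and miR-26a at 0.989, the values nearest to U6 in the authors' deposited table. Both lie inside the range of U6's own A-set spots (0.961 to 1.02 in the authors' deposited table), so they cannot be told apart from U6. Those remaining ran between 0.816 (miR-186) and 0.931 (miR-24) in the authors' deposited table, with miR-16 at 0.903, miR-93 at 0.921, miR-26b at 0.872 and miR-30e at 0.842. The exception was miR-92a, a miRNA that promotes proliferation and cell survival, at 0.460 in the authors' deposited table. It was the 1 member at least 1.5-fold from 1, beside 28.9% of A-set miRNA spots.

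The snoRNAs and Y1 in the A set were thus on the other side of U6 from most of these miRNAs. With the mean of snoRNA135, snoRNA202, U87 and Y1 as the reference, 10 of the 11 miRNAs were below 1 and the median was 0.804, with let-7a alone above at 1.02. This reference moves every A-set miRNA alike, and 214 of all 304 A-set miRNA spots (70.4%) were then below 1, beside 159 (52.3%) with U6. With snoRNA202 alone the list's median was 0.829, again with 10 of 11 below, beside 204 of 304 (67.1%). By medians, U6 lay between the other small RNA controls and these miRNAs: the controls' A-set medians ran from 1.09 (U87) to 1.21 (snoRNA135), and the list's median was 0.921. The 1-spot miRNA ratios have no repeat, so their own spread is not known.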

How the data were processed

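Total RNA of 6 LP0.5 and 6 Control islet samples was measured by TaqMan real-time PCR (FAM label), per the labels' protocols. The authors deposited linear ratios (fold values) of low-protein against control, 1 per spot, per the file headers; 190 of 846 spots have none. Limma is named in the submitters' processing notes; the sources used here do not give its role, the detection limit or how samples were averaged. A second table deposited by the authors was used only for its text columns (unit other: spot codes and names); its 12 per-sample columns match no sample label and were not used, so the planned tests per sample were not run.

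Ratios were put on the log2 scale. A block's set was read from the panel letter of its miRNA assays. Means and SDs are over the spots of an assay and set; a new reference was subtracted as the mean over assays of their spot means. All 6 members and the 11 miRNA normalizers were named by rule. Members and lists were chosen with earlier results of these data known. The reference means and the counts past the fold limit were tested on simulated data, but the subtraction of a new reference was not. Depth does not apply; the number of spots limits the precision. Python 3.11.15, numpy 2.4.6, pandas 2.3.3 and matplotlib 3.10.9 were used.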

Additional observations from a re-analysis of the deposited data

Results flagged for a closer look

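Among the 11 combinations of assay and set with 8 ratios each, 2 held a spot that lay far from the others by Dixon's test on the log2 scale, which chance gives in about 1 in 20 such groups. The spots are repeats of 1 comparison and not samples. The authors' deposited table has 0.133 for the B-set U87 spot of row A, column 4, with a gap of 0.863 of the range of its 8 spots. It has 0.883 for the B-set Y1 spot of row A, column 3, again from the authors' deposited table, with a gap of 0.533, just past the critical value. The cause was not tested for either.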

How the results depend on the processing

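No paired analysis was possible because the deposited ratios are 1 value per spot and the columns of single samples carry no replicate number of the labels. The tests per sample, without each replicate in turn and with other treatment of missing cycles, were not run for the same reason. The single-control references, the references without the U87 spot of row A, column 4, and snoRNA202 as reference for the miRNA list were chosen after seeing the data. Other settings gave 66 values for the control assays, of which 41 were within 1 SD (between spots) of the main value and 25 were not, each of the latter under a changed reference. With the 4 other controls as reference the mean log2 ratios were -0.20 (A set) and -0.12 (B set) for U6, -0.046 and -0.066 for snoRNA202, -0.064 for U87 and 0.046 for Y1 in the A set, and 1.47 for the plant assay in the B set. Without the U87 spot of row A, column 4 in that reference, the A-set values stayed at -0.20, -0.046, -0.064 and 0.046, and the B-set values were -0.21 for U6, -0.16 for snoRNA202, 0.026 for snoRNA135 and 1.38 for the plant assay. With snoRNA135 and snoRNA202 as reference they were -0.21 and -0.145 for U6, -0.055 and -0.092 for snoRNA202, -0.073 for U87 and 0.037 for Y1 in the A set, and 1.45 for the plant assay. With the miRNA median they were 0.035 and -0.070 for U6, and -0.018 for snoRNA202 in the B set. These moves follow from the subtraction itself. The U87 mean of the B set turned from -0.33 to 0.05 as a median over spots and to 0.04 without the spot farthest from it. Counts of miRNA spots past 1.5-fold (105 above, 95 below) were 70 and 67 at 2-fold, 40 and 48 in the A set alone and 65 and 47 in the B set alone, both smaller by construction and leaning opposite ways. The count below 1 was 144 with snoRNA135 and 181 with Y1 as reference. The median of the 11 miRNA normalizers stayed below 1 under the 3 other references run. Precision is limited by 8 spots per assay and set and by the absence of sample values.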
